A study of Rattus norvegicus with 6 samples.

Results

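The regions described here are the differentially methylated regions (DMRs) assigned to Hox cluster genes in brain microvascular endothelial cells (BMECs) of the rat hippocampus. A region was a member when the authors' annotation gave it a gene symbol made of Hoxa, Hoxb, Hoxc or Hoxd and a number, and each region was counted once by its position and cytosine context. The rule found 10 of 24862 annotated regions. The cells came from adult male Sprague-Dawley rats and were sorted as CD45-/CD31+ cells. The CUMS group (3 samples) underwent 8 weeks of chronic unpredictable mild stress, with stressors in random order, and the Ctrl group (3 samples) had been left undisturbed. No genetic change or drug is named for either group, and the sources do not state whether each sample was a single rat. DNA methylation was read after enzymatic conversion with TET2 and APOBEC3A, which protects methylated cytosine and deaminates unmethylated cytosine. Such conversion reads 5-methylcytosine and 5-hydroxymethylcytosine alike.

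For each region the tables give 1 methylation level per group, into which the samples of that group had been combined. The spread between samples could therefore not be computed, and no test over samples was possible. A region statistic of the authors was also given but was not used here. The paper gives a sequencing coverage for the samples as a whole, but the read depth behind a level was unknown. Every listed region had already been selected by the authors as differing between the groups, so that a count of Hox regions describes this list and not all Hox cytosines. Levels are in percent, differences are CUMS minus Ctrl in percentage points, and a region higher in CUMS is called hypermethylated.

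Hox genes encode homeodomain transcription factors that give embryonic cells their position along the head-to-tail axis. They lie in 4 clusters, HoxA to HoxD, in which low-numbered genes act toward the head and high-numbered genes act toward the tail and in the distal limb. Their promoters are rich in CpG dinucleotides, and Polycomb proteins hold them silent in cells where they are not used, usually with little DNA methylation at their CpG islands. Forebrain tissue lies in front of the domain in which Hox genes are active in the embryo, whereas endothelial cells of many vessels are known to use Hox genes in growth and quiescence.

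Of the 10 regions, 8 were in the CG context and 2 in the CHG context, where H is any base but G. No CHH region was assigned to a Hox gene in the annotated list. All 8 CG regions were hypermethylated in CUMS, by 7.09 to 29.6 percentage points with a median of 12.1 points, and all 8 overlapped a CpG island. The regions lay on 10 of 39 Hox genes, Hoxa3, Hoxa4, Hoxa13, Hoxb4, Hoxb6, Hoxb9, Hoxc11, Hoxd8, Hoxd11 and Hoxd13. Among all 5849 CG regions, 80.0% were hypermethylated and 52.7% overlapped an island, and among the 3083 CG regions in islands 97.0% were hypermethylated. The direction of the Hox CG regions was thus that of nearly all listed island regions.

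The annotation placed 6 regions in the promoter of a Hox gene, namely Hoxa4, Hoxa13, Hoxb6, Hoxd8, Hoxd11 and Hoxd13. The RefSeq promoter table held 5 of these genes, and the 250 bases before the annotated gene start are shown here to let the CpG content at these starts be read directly. Capitals mark each CG dinucleotide, and each sequence runs 5′ to 3′ on the strand of the gene, in the GRCr8 assembly. The DMRs are placed on the mRatBN7.2 assembly, so that the position of a DMR within these windows is not given.
Hoxd13, chr3:79977827-79978076, plus strand: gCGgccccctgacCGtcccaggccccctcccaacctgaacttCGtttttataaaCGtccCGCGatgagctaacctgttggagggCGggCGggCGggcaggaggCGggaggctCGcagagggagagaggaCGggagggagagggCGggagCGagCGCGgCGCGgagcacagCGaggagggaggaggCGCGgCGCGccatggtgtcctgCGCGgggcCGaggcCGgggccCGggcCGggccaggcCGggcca
Hoxd11, chr3:79992144-79992393, plus strand: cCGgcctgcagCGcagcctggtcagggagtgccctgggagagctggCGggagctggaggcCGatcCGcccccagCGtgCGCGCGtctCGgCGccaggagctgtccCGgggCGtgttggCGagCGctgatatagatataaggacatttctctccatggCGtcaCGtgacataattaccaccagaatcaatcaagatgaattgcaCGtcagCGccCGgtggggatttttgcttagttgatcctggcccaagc
Hoxd8, chr3:80014973-80015222, plus strand: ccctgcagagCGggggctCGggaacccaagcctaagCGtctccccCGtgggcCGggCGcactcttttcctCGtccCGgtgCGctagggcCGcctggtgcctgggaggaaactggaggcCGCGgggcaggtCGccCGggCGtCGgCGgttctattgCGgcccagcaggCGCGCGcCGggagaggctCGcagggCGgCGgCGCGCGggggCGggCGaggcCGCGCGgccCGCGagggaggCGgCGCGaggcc
Hoxa13, chr4:82691702-82691951, minus strand: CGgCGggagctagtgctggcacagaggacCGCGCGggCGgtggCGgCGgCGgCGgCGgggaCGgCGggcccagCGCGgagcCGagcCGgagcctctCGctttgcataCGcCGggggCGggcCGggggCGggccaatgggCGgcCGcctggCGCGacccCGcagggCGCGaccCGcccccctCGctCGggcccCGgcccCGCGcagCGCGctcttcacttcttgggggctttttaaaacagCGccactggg
Hoxa4, chr4:82622303-82622552, minus strand: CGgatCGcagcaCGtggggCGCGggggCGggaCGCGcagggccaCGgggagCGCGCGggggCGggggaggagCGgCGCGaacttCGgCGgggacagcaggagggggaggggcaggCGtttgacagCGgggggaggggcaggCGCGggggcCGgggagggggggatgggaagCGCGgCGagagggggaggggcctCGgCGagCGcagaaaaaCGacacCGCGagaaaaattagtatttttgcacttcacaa

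The windows held 30 CG dinucleotides for Hoxd13, 20 for Hoxd11, 38 for Hoxd8, 39 for Hoxa13 and 32 for Hoxa4. Among 33469 RefSeq promoter windows of the same length, 92.2% held at least 1 CG and the median was 5. A count as high as that of Hoxa13 was found in 1.43% of all windows, and a count as high as that of Hoxd11 in 16.7%. Since CG reads the same on both strands, these counts hold for either strand. The 21 windows of 20 Hox genes in the table had a median of 20 CG dinucleotides.

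The HoxD cluster held the region with the largest difference. Hoxd13 (ENSRNOG00000001588), which patterns digits and the caudal end of the body, had a promoter region at chr3:59570327-59570411 with 12 CG cytosines. Its level was 7.37% in Ctrl and 37.0% in CUMS, a difference of 29.6 points. In order of absolute difference it stood at place 83 of the 3083 CG regions in islands. The region covered 7.16% of its island of 1187 bp, so the level describes a short stretch and not the island as a whole.

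Hoxd11 (ENSRNOG00000069591), which patterns the forearm and the kidney together with its paralogues, had a promoter region 14188 bp further along the cluster, at chr3:59584600-59584652. The level over its 16 CG cytosines was 6.71% in Ctrl and 18.9% in CUMS, a difference of 12.2 points. Of these HoxD regions of the CG context, Hoxd13 had the higher level in both groups, by little in Ctrl and by more in CUMS. Each level is a single group value, so it could not be said whether the regions differ. The third HoxD region was a CHG region of 9 cytosines in the promoter of Hoxd8 (ENSRNOG00000071108), at chr3:59607359-59607435. It was at 3.96% in Ctrl and 0.0431% in CUMS, and was the only Hox region that was lower in CUMS (-3.92 points). It also overlapped an island, of 1330 bp. Of all CHG regions in islands 62.1% were hypermethylated, against 97.0% of CG regions in islands. The lower Hox region in an island was thus of another context than the 8 CG regions, which were all higher.

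In the HoxA cluster, Hoxa13 (ENSRNOG00000057061), a paralogue of Hoxd13 that acts in the distal limb and genital tract, carried 2 CG regions in the same island of 1214 bp, 313 bp apart. The exon region at chr4:81360566-81360787 had 89 CG cytosines, the most of any Hox region, and was at 7.28% in Ctrl and 15.9% in CUMS (8.59 points higher). The promoter region at chr4:81361101-81361176 had 21 CG cytosines and was at 8.58% in Ctrl and 22.9% in CUMS (14.3 points higher). Both regions of this island were hypermethylated, and because they share an island and a gene they are not separate observations of the cluster.

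The remaining HoxA region, at chr4:81291930-81291989, lay both in the promoter of Hoxa4 (ENSRNOG00000027365) and in an intron of Hoxa3 (ENSRNOG00000006281). These genes pattern the neck and hindbrain region. Its 22 CG cytosines were at 5.96% in Ctrl and 18.1% in CUMS, 12.1 points higher. It was the only region of the annotation shared by a pair of Hox genes, and it was 68576 bp away from the nearer Hoxa13 region.

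The HoxB cluster held 3 regions, all higher in CUMS. Hoxb9 (ENSRNOG00000007573), which patterns the thoracic skeleton and the mammary gland with its paralogues, had an intron region at chr10:81238140-81238267. Its 41 CG cytosines were at 5.47% in Ctrl and 28.3% in CUMS, a difference of 22.9 points and place 335 of 3083 among CG regions in islands. Hoxb4 (ENSRNOG00000008191), known for its role in blood stem cells, had an exon region at chr10:81284975-81285041. Its 21 CG cytosines were at 7.43% in Ctrl and 14.5% in CUMS, and 7.09 points was the smallest difference among the Hox CG regions.

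Between them lay the CHG region of Hoxb6 (ENSRNOG00000007823), at chr10:81263255-81263421 in the promoter. Its 26 CHG cytosines were at 0.0124% in Ctrl and 7.91% in CUMS, 7.90 points higher, and it stood at place 585 of 9017 CHG regions in absolute difference. It lay on the shore and shelf of islands and was the only Hox region that overlapped no island. The Hoxb6 and Hoxd8 regions were thus in opposite directions, while 68.6% of all CHG regions were hypermethylated. In its lower group each was near the floor, at 0.0124% for Hoxb6 and 0.0431% for Hoxd8, and the reads behind these levels were not given.

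The HoxC cluster held a single region, in an intron of Hoxc11 (ENSRNOG00000016141), a gene of the lumbar and sacral domain, at chr7:134093338-134093479. Its 27 CG cytosines were at 4.66% in Ctrl, the lowest Ctrl level of the Hox CG regions, and at 15.2% in CUMS, 10.5 points higher. It covered 53.6% of its island of 265 bp, the largest covered share among the Hox regions that overlapped an island.

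**Figure D1:**
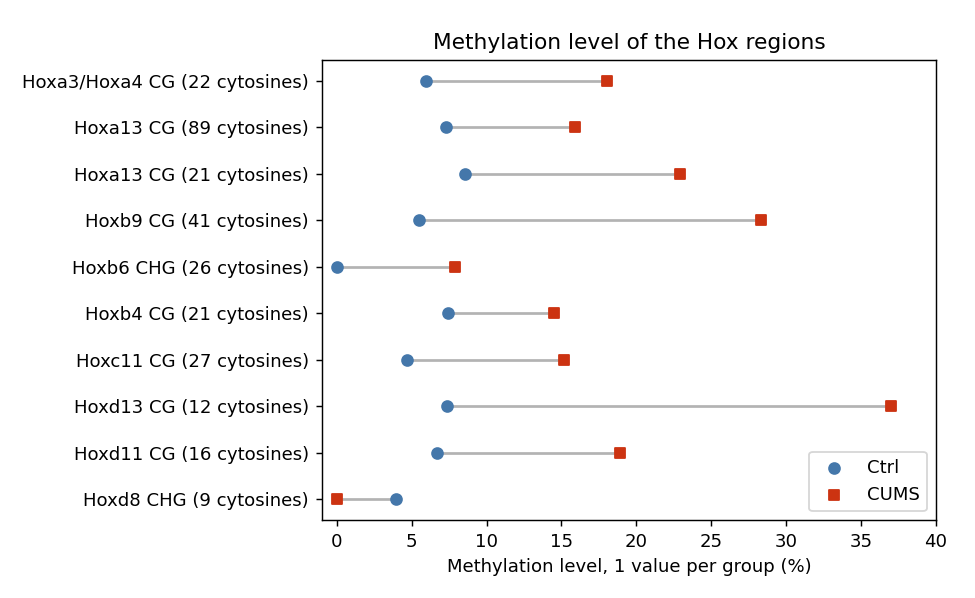
Methylation level in percent (horizontal axis) of each of the 10 Hox regions (vertical axis, with gene, context and number of cytosines) in Ctrl (circles) and CUMS (squares); each point is the single level of a group and carries no error. The 8 CG regions lie between 4.66% and 8.58% in Ctrl and between 14.5% and 37.0% in CUMS, and only the Hoxd8 CHG region lies lower in CUMS.

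Set in order, the CUMS levels of the CG regions ran from 14.5% (Hoxb4), 15.2% (Hoxc11) and 15.9% (Hoxa13 exon) through 18.1% (Hoxa3 and Hoxa4) and 18.9% (Hoxd11) to 22.9% (Hoxa13 promoter), 28.3% (Hoxb9) and 37.0% (Hoxd13). The Ctrl levels covered a much narrower range, from 4.66% to 8.58%. Without sample values it could not be said which neighbours in this order differ.

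By position in the clusters, 5 of 16 posterior genes (paralogue numbers 9 to 13) had a CG region, against 2 of 15 central genes (numbers 4 to 8) and 1 of 8 anterior genes (numbers 1 to 3). The posterior genes held 6 of the 8 CG regions, with a median difference of 13.3 points. It was 9.59 points over 2 CG regions of central genes and 12.1 points for 1 CG region of anterior genes. The Hoxa3 and Hoxa4 region is counted in both of these groups, and 2 posterior regions share the Hoxa13 island. Central genes also held both CHG regions. By cluster, a region of any context lay on 3 of 11 HoxA genes, 3 of 10 HoxB genes, 1 of 9 HoxC genes and 3 of 9 HoxD genes. These counts are small, and the difference between the groups of genes was not tested.

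Of the 39 Hox genes, 8 (20.5%) had a CG region, while 12.9% of 23154 protein-coding genes of the RefSeq gene table had one by the same symbol match. For regions of any context the share was 25.6% of Hox genes and 25.9% of all protein-coding genes. The share of Hox genes was thus higher than the background in the CG context and close to it over all contexts, and neither difference was tested. Genes that the annotation names only by an identifier can go unmatched, so the background shares may be too low, while all Hox symbols matched. The region shared by Hoxa3 and Hoxa4 counts for both genes, and the background was not limited to genes with an island.

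Compared with the CG regions in islands as a whole, the Hox regions had ordinary levels. The island regions had a median level of 6.36% in Ctrl (quartiles 5.14% and 8.32%) and of 18.1% in CUMS (quartiles 13.6% and 26.4%). Of the 8 Hox CG regions, 6 lay within the quartiles in Ctrl and 6 within those in CUMS. The median difference was 12.1 points for the Hox regions and 11.2 points for the island regions. A difference of at least 10 points, the minimum named in the methods, was reached by 6 of 8 Hox CG regions and by 60.7% of CG regions in islands. The Hox regions were shorter, with a median of 80.5 bp against 125 bp, and held a median of 21.5 CG cytosines against 32.

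**Figure D2:**
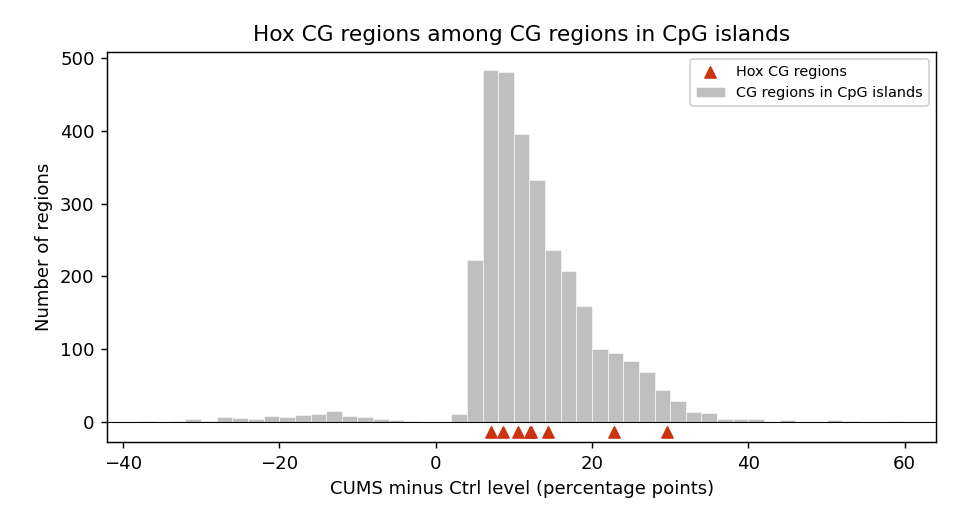
Number of CG regions in CpG islands (vertical axis) by CUMS minus Ctrl level in percentage points (horizontal axis, bins of 2 points), with the 8 Hox CG regions as triangles under the axis at their own difference. The Hox regions lie from 7.09 to 29.6 points, on the hypermethylated side where 97.0% of the 3083 island regions lie.

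Genes with a homeodomain outside the Hox clusters were the set most like them. They were found by the homeodomain entry (PF00046) in the gene descriptions of the annotation, a choice made after the tables were seen. In all 95 regions lay on 56 such genes, and 43 of them were CG regions. All 43 were hypermethylated, 42 overlapped an island, and their median difference was 11.99 points, against 12.1 points for the Hox CG regions. Among all CG regions in islands 97.0% were hypermethylated, and the median difference was 11.2 points. Of their 27 CHG regions, 17 were hypermethylated and 10 hypomethylated (63.0% hypermethylated, against 68.6% of all CHG regions). The Hox CG regions thus had the direction and size seen at other homeodomain genes, and both sets were close to CG regions in islands as a whole.

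The full list of the authors holds 145823 CHH regions, most of which were not annotated, and was searched around the Hox regions, in windows set after the tables were seen. Within 50 kb of the outermost Hox regions of each cluster no further CG or CHG region was listed. The same windows held 55 CHH regions, 34 hypermethylated and 21 hypomethylated (61.8% hypermethylated, against 64.6% of all CHH regions), with a median absolute difference of 2.84 points. The CG regions of the clusters therefore shared a direction while the CHH regions around them lay on both sides. By cluster, hypermethylated CHH regions numbered 6 of 11 around HoxA, 18 of 25 around HoxB, 5 of 10 around HoxC and 5 of 9 around HoxD.

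At a closer range some CHH regions lay beside or over a Hox region. At Hoxa13 a CHH region 69 bp from the exon region was at 3.60% in Ctrl and 0.145% in CUMS, lower in CUMS where both CG regions of the island were higher. At Hoxd11 a CHH region 45 bp away was at 4.33% in Ctrl and 0.148% in CUMS, again opposite to the CG region. At Hoxc11 a CHH region overlapped the CG region and had its direction, with 0.0785% in Ctrl and 4.62% in CUMS. At Hoxb6 a CHH region overlapped the CHG region, and at 0.108% in Ctrl and 4.66% in CUMS it too had the direction of its partner. At Hoxd13 the nearest CHH region lay 258 bp away and was at 0.0167% in Ctrl and 3.09% in CUMS. For the other Hox regions the nearest region of another context was over 1 kb away, apart from the Hoxa13 promoter region, for which it was the same Hoxa13 CHH region at 604 bp.

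**Figure D3:**
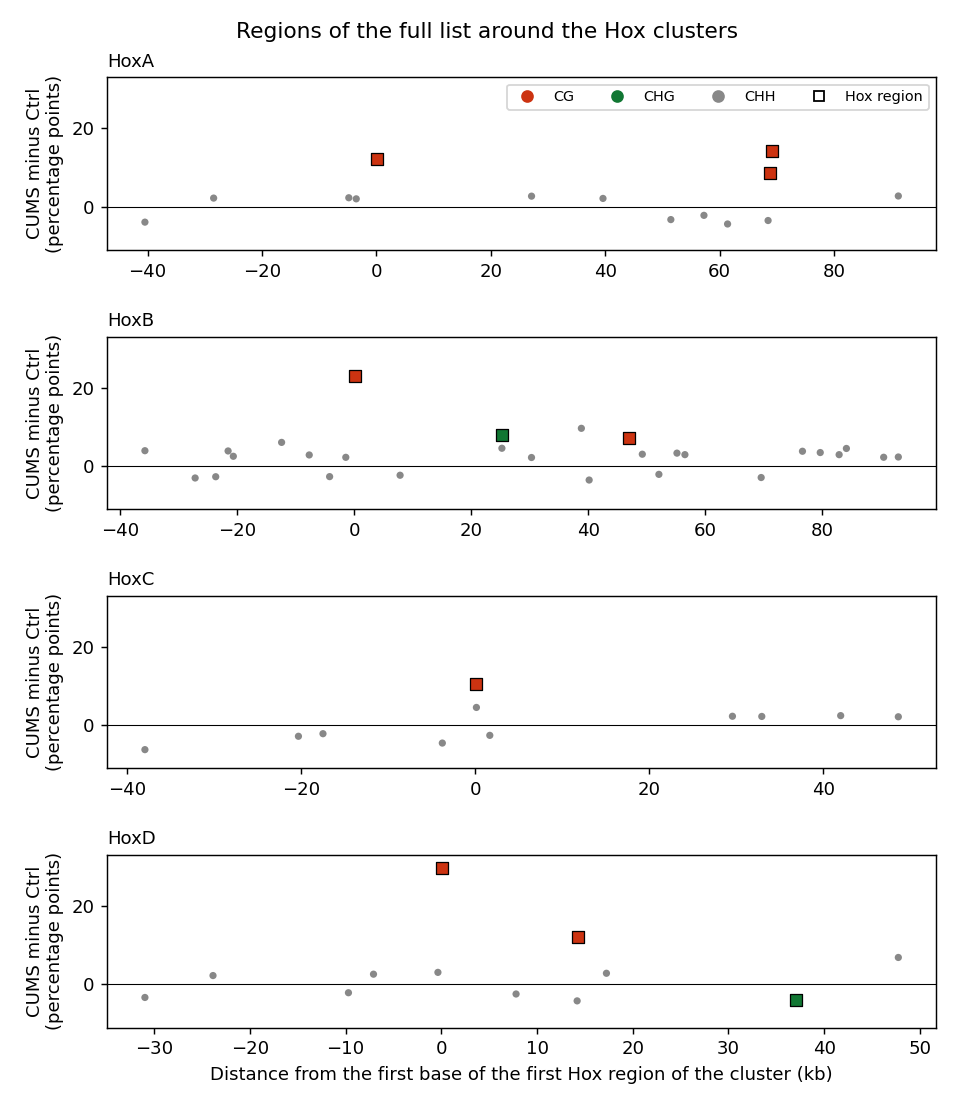
CUMS minus Ctrl level in percentage points (vertical axis) of every region of the full list within 50 kb of the Hox regions of a cluster, by distance in kb from the first base of the first Hox region (horizontal axis, drawn to a different scale in each panel); squares are Hox regions, small circles are other regions, and colour gives the context. The 8 CG squares all lie above zero, whereas the 55 CHH circles lie on both sides.

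The counts for the lists of Hox partners and regulators, and for the marker genes after them, are to be read against the whole table. There 25.9% of protein-coding genes had a region of any context, and 80.0% of CG regions, 97.0% of CG regions in islands, 68.6% of CHG regions and 78.5% of annotated CHH regions were hypermethylated. No list was tested against these shares, and nothing particular to a list follows from its direction.

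Hox proteins bind DNA together with TALE homeodomain cofactors of the Pbx, Meis and Pknox families. Of the 8 cofactor genes analysed here, 6 had a region of any context, against 25.9% of protein-coding genes. The 5 CG regions among them, on Pbx2, Pbx3, Meis1 and Pknox1, were all hypermethylated, against 80.0% of all CG regions. Of these 5 regions, 4 overlapped an island, and 97.0% of CG regions in islands were hypermethylated. The largest difference was at the promoter of Pbx2, with 8.15% in Ctrl and 36.7% in CUMS. All 4 CHG regions and 3 of 4 CHH regions of these genes were hypermethylated. The median CG difference of these genes was 18.2 points. Over all CG regions the median was 11.9 points with sign and 15.6 points in absolute value.

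Polycomb proteins keep Hox genes silent, and 11 of 19 Polycomb genes had a region, against 25.9% of protein-coding genes. Of their 8 CG regions 7 were hypermethylated (87.5%, against 80.0% of all CG regions). These 7 overlapped an island, as the other did not, and 97.0% of CG regions in islands were hypermethylated. The largest difference was at Phc1, a subunit of the first Polycomb complex, with 12.5% in Ctrl and 46.2% in CUMS over 5 cytosines. The exception was Phf19, a partner of the second Polycomb complex, at 16.7% in Ctrl and 7.54% in CUMS. Their 3 CHG regions were hypermethylated and their single CHH region, in Phc2, was hypomethylated. The annotated list held no region for Ezh2, Eed or Suz12, the core of the second complex.

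Trithorax proteins maintain active Hox genes, and demethylases of histone H3 lysine 27 remove the Polycomb mark. In this list 5 of 8 genes had a region, and its 5 CG regions, on Ash1l, Wdr5, Kmt2a and Kdm6a, were all in islands and all hypermethylated, as were 97.0% of CG regions in islands. The largest difference was at Kdm6a, with 7.46% in Ctrl and 35.8% in CUMS. Of the 2 CHG regions, that of Kmt2a was higher and that of Kmt2b lower in CUMS.

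Retinoic acid activates Hox genes in the embryo, in order along each cluster. Regions lay on 8 of 12 genes for its synthesis, breakdown and receptors. Their 4 CG regions, all in islands, were hypermethylated, as were 97.0% of CG regions in islands. A region of Aldh1a2, which makes retinoic acid, had the largest difference, from 71.6% in Ctrl to 90.6% in CUMS. This was the only CG region of the list with a Ctrl level far above those of the Hox regions. Of their 8 CHG regions 6 were hypermethylated (75%, against 68.6% of all CHG regions), and all 5 CHH regions were, against 78.5% of annotated CHH regions. Evx1 and Evx2, which flank the HoxA and HoxD clusters, had no region in the annotated list.

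**Figure D4:**
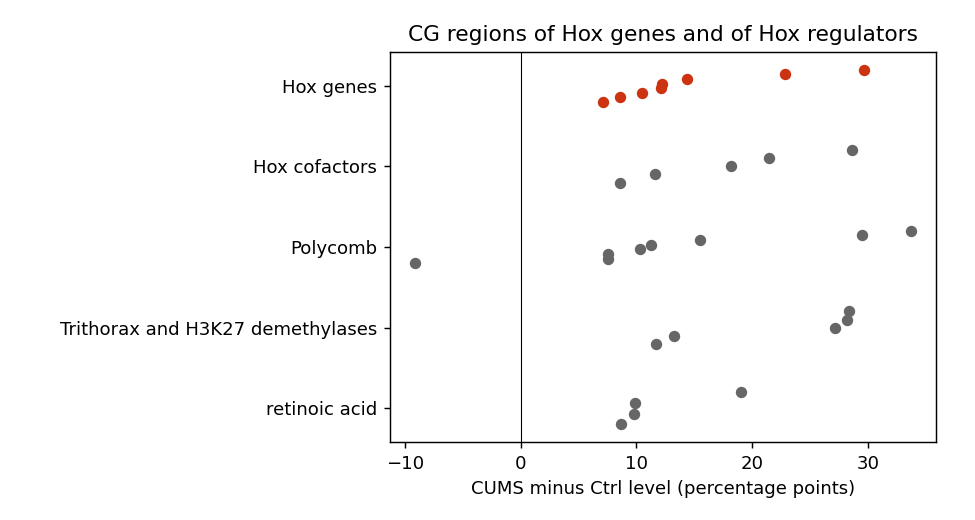
CUMS minus Ctrl level in percentage points (horizontal axis) of each CG region of the Hox genes and of the lists of cofactors, Polycomb genes, Trithorax genes with H3K27 demethylases, and retinoic acid genes (vertical axis; points are spread upward within a list only for legibility). Of the points, only the Phf19 region of the Polycomb list lies below zero.

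The tables hold no expression, so that the endothelial identity of the cells was not checked by RNA. Listed regions lay on 4 of 12 endothelial marker genes, 3 of 6 microglia and leukocyte genes, 1 of 4 pericyte genes and 2 of 4 genes each for astrocytes, neurons and oligodendrocytes, against 25.9% of all protein-coding genes. Of the 5 endothelial regions 3 were higher in CUMS, namely a CHG region of Pecam1 (5.70 points) and CHH regions of Vwf (4.74 points) and Tie1 (6.07 points). The other endothelial regions were lower, a CHH region of Tek (-9.14 points) and a CG region of Tie1, at 16.4% in Ctrl and 4.22% in CUMS. The astrocyte genes had CHH regions only, of which that of Slc1a3 had the larger difference, with 0.0261% in Ctrl and 8.02% in CUMS. In the CG context the oligodendrocyte gene Mog was at 81.4% in Ctrl and 49.1% in CUMS. The other CG regions of markers were higher in CUMS at the microglia gene Tmem119 (5.79% and 17.4%) and the neuron gene Rbfox3 (7.68% and 22.8%) and lower at the pericyte gene Abcc9 (93.4% and 78.7%). The part of the cell mixture in the Hox differences was not tested.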

How the data were processed

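Genomic DNA of sorted hippocampal BMECs from 3 CUMS and 3 Ctrl samples, grouped by their titles, was measured. Per the submitters' processing notes and the study's methods, reads were checked with FastQC 0.11.3, trimmed with fastp 0.20.0 and aligned with Bismark 0.16.3 and Bowtie2 to mRatBN7.2, and DMRs were called with DSS. The authors deposited the mean methylation level of each region as a fraction, with 1 value per group, and it was multiplied into percent here. The tables also hold the authors' own difference and a region statistic, which were not used. The full list held 160692 regions and the annotated list 24862, with 9996 of the 145823 CHH regions. The smallest listed difference was 2.00 percentage points, below the limit stated in the methods. Conversion rates, coverage and promoter width were not given in the tables used here, and the profile over all gene bodies was not used because it holds no value per gene.

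Hox regions were found by gene symbol, and counts, medians and ranks were computed with pandas 2.3.3 in Python 3.11.15 after a check on simulated tables. No test was run. All Hox genes with a region, and the region of largest absolute difference in each list, were named. An item of the cofactor list is not reported here. The members and lists were chosen with earlier results of these data known. Alternatives were limits of 10 and 20 points, 10 cytosines or 100 bp, joining within 1000 bp, membership by span, the full list, and leaving out a cluster. Gene symbols were counted in a RefSeq table of GRCr8, which held all 39 Hox genes.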

Additional observations from a re-analysis of the deposited data

Results flagged for a closer look

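The annotated list left out most CHH regions, and the full list held 13 CHH regions that lay wholly between the outermost Hox regions of a cluster and were not annotated. Of these, 5 were higher and 8 were lower in CUMS, with absolute differences from 2.14 to 4.55 percentage points. With an annotated CHH region of the HoxB span, which was 9.62 points higher, 6 of 14 were higher. Over the full list 64.6% of CHH regions were higher. The 8 CG regions of the same stretches were all higher, as were 97.0% of CG regions in islands. The 13 CHH regions were singled out because they stand in data that the comparison of annotated regions does not use. The difference between the contexts was not tested.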

How the results depend on the processing

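The 7 counts, shares and medians were recomputed in 68 combinations with 12 other settings. Most settings kept, dropped or joined the same Hox regions, and those that added regions added only CHH regions. The direction of the CG regions could therefore not change, and its constancy says nothing of how stable it is. In 53 of the combinations the value stayed within 1.5 times the reported count or median, or within the exact 95% binomial interval of the reported share. That interval counts each region as independent and is wide for so few regions. The fall from 90% to 62.5% higher in the full list lay within it, so the 53 combinations do not measure stability. As no setting added a CG region, all CG regions were higher in CUMS and in islands wherever these shares were given. With a limit of 10 points, 6 regions remained over all contexts, 100% of them higher in CUMS. With a limit of 20 points, 2 CG regions on 2 genes remained, 2 regions over all contexts, 100% higher, with a CG median of 26.2 points. With at least 10 cytosines, 100% of regions over all contexts were higher, since the Hoxd8 region was dropped. With a length of at least 100 bp, 3 CG regions on 3 genes remained, 4 over all contexts, 100% higher. Without the HoxA cluster 5 CG regions remained, and without the HoxD cluster 100% of regions over all contexts were higher. The full list inside the spans held 24 regions, 62.5% higher in CUMS. No paired analysis was possible because each group has 1 value per region, and for the same reason no sample could be left out. Depth limits could not be set, since no coverage by region was given.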

Other observations

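Among homeodomain genes outside the Hox clusters, chosen after the tables were seen, the largest CG differences were at Barx2, with 35.1% in Ctrl and 65.9% in CUMS, and at Pbx2, a Hox cofactor described above. Pou3f1, a POU-domain factor of neural and glial cells, followed with 7.93% in Ctrl and 34.6% in CUMS, and Lhx4, a LIM-domain factor of the pituitary, with 7.70% in Ctrl and 32.4% in CUMS. These values lie near those of Hoxd13 (7.37% and 37.0%) except for Barx2, whose Ctrl level was higher. Of the 25 CHH regions of these genes, 16 were higher and 9 lower in CUMS (64% higher, against 78.5% of annotated CHH regions). This difference was not tested.

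Inside the HoxB span a CHH region at chr10:81276812-81277079, on an island shelf and assigned to no gene, was at 0.113% in Ctrl and 9.74% in CUMS, the largest difference of any CHH region within 50 kb of the Hox regions.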
